A study of Oryza sativa with 3 samples.

Results

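The miR164, miR171, miR394 and miR396 families were followed in the young panicle of rice (Oryza sativa), in a japonica background. Their members were the 16 of 367 rows of a miRNA read-count table whose name carried one of these family numbers. Of these, 3 rows belonged to miR164, 6 to miR171, 1 to miR394 and 6 to miR396. A read was found for 13 of the 16 in at least 1 library, and 11 reached the minimum of 30 reads summed over the libraries that was set for calling a difference. The 3 groups were wild type, the mutant ld-1 and the mutant ld-2, which per the labels received no treatment. Each group was 1 library, and neither plant age, exact panicle stage nor pooling of plants is stated there. Per the title, a mutation of miR172b lies behind the lodiculeless spikelet, whose florets stay closed, and the labels give no other allele. Plants were raised in a greenhouse or in a summer field, without a statement of which applied to each library.

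A plant miRNA guides an Argonaute protein to a nearly complementary transcript, which is then cut or blocked, so families are grouped by the transcripts they repress. miR164 represses NAC transcription factors of the CUP-SHAPED COTYLEDON type, which mark the boundaries between organs. miR171 represses GRAS factors of the HAIRY MERISTEM type, which keep meristems undifferentiated. miR394 represses an F-box gene and is known from Arabidopsis as a mobile signal of shoot meristem competence. miR396 represses growth-regulating factors (GRFs), which promote cell proliferation and in rice set floret form, panicle branching and grain size.

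The sequences that carry the levels are shown first, 5′ to 3′ as deposited (T for U), with the seed, bases 2 to 8, in capitals.
miR164a//miR164b//miR164f: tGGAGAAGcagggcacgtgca
miR164c: tGGAGAAGcagggtacgtgca
miR171b//miR171c//miR171d//miR171e//miR171f: tGATTGAGccgtgccaatatc
miR171c: gGATATTGgtgcggttcaatc
miR394: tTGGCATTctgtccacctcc
miR396a//miR396b: tTCCACAGctttcttgaactg
miR396c: tTCCACAGctttcttgaactt
miR396c, opposite arm: gGTCAAGAaagctgtgggaag
miR396e: tCCACAGGctttcttgaactg
All 3 miR164 rows had the seed GGAGAAG, and none of the seeds of the 16 rows occurred in a row of another family. Counting positions from 1 at the 5′ end, miR164c differed from the shared miR164 sequence by C14T and miR164d by A21T, both outside the seed. miR396a//miR396b differed from miR396c by T21G, and both had the seed TCCACAG. miR396e equalled miR396a//miR396b over all 21 bases once the first base was dropped and a G was added at position 8, so its seed read CCACAGG. miR396 with this added base is a form known from grasses. Joined names mark loci that give 1 identical mature sequence.

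The table does not name precursor arms, so a row was placed on the opposite arm when it lay more than 3 edits from its family's most abundant sequence, called the main copy here. Such a row should resemble the reverse complement of the main copy, as its partner in the hairpin. The reverse complement of the miR171c row printed above was 5 edits from the main miR171 copy, against 10 edits for the row itself. For the opposite-arm miR396c row these distances were 5 and 13 edits. The miR171d and miR171e rows, tGTTGGCCcggctcactcaga and tGTTGGCTcggctcactcaga, differed from each other by C8T. Their reverse complements were 7 edits from the main miR171 copy against 9 for the rows themselves, which is a weaker assignment. A miR171i row, aGGTATTGgcgtgcctcaatc, stood at 6 against 8 edits and was also placed there.

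Sets of 3 values below follow the order wild type, ld-1, ld-2 unless stated otherwise. Depth was 116818, 140807 and 66642 miRNA reads. Levels are given as scaled RPM, a count divided by a library size corrected with TMM factors (trimmed mean of M values), on which 1 read equals 8.52, 8.27 and 12.9 RPM. With 1 library per genotype there is no replicate and no test. Intervals are exact 95% intervals for counting error, and the spread between plants is not in them. A sequence is called listed, higher or lower, where its scaled level differed at least 2-fold (log2 ratio of 1) with an interval excluding a ratio of 1. miR2118 and miR2275, anther miRNAs that mark panicle stage, summed to 11021, 9996 and 37252 RPM. This sum was nearly all miR2118 (12 rows) in each library, and miR2275 gave 1 of its 1293 wild type reads. The part of the miR2118 difference in the ld-2 values below was not tested. In whole panicles, fewer cells of a type and less RNA per cell cannot be told apart.

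Together the 4 families gave 2879, 2698 and 1522 reads, or 2.46%, 1.92% and 2.28% of all miRNA reads. They ranked between 13 and 21 by reads among the 136 to 141 families with a read in a library. In wild type the scaled levels were 8114 RPM for miR394 (7607 to 8647) and 7910 for miR396 (7409 to 8436), whose intervals overlapped. miR164 followed at 5063 (4664 to 5487) and miR171 at 3452 (3124 to 3805), each apart from its neighbours. In ld-1 the order was miR396 at 7058 (6592 to 7548), miR394 at 6860 (6400 to 7343), miR164 at 4352 (3988 to 4741) and miR171 at 4054 (3703 to 4430), with overlap within the upper and within the lower pair. In ld-2 miR394 at 6661 (6098 to 7262) stood above miR396 at 5536 (5024 to 6086), and miR171 at 3803 (3380 to 4263) overlapped miR164 at 3686 (3271 to 4140). The families thus kept to a high pair and a low pair in each library, and the order inside a pair was resolved in wild type for the low pair and in ld-2 for the high pair.

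**Figure D1:**
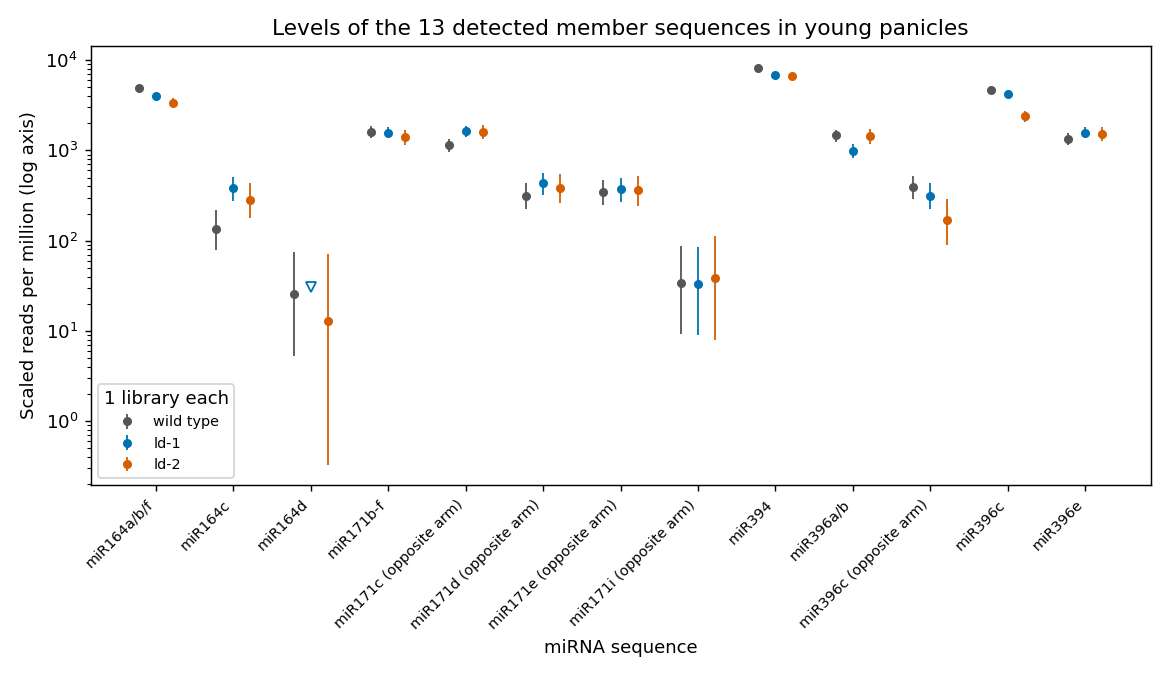
Scaled RPM (log axis) of the 13 member sequences with a read, in 1 library per genotype; bars are exact 95% Poisson intervals and the open triangle is the upper limit of a count of 0. miR394, the shared miR164 sequence and miR396c were the highest members in wild type, and miR164c and both miR396c sequences show the widest gaps between wild type and a mutant among the tested members.

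No family sum reached 2-fold in either mutant. The log2 ratio of ld-1 to wild type was -0.22 for miR164 (-0.39 to -0.05), 0.23 for miR171 (0.04 to 0.43), -0.24 for miR394 (-0.38 to -0.11) and -0.16 for miR396 (-0.30 to -0.03). For ld-2 it was -0.46 for miR164 (-0.67 to -0.25), 0.14 for miR171 (-0.08 to 0.36), -0.28 for miR394 (-0.44 to -0.13) and -0.51 for miR396 (-0.68 to -0.35). The miR171 sums were above 0 under each scaling tried. For ld-1 the interval of the sum included 0 with RPM of all miRNA reads (-0.19 to 0.20). It also did so without the 5 most abundant sequences (-0.09 to 0.30) and in thinned libraries (-0.09 to 0.45). The main-arm sequence of miR171 alone was at -0.03 for ld-1 and -0.19 for ld-2, of which the latter became 0.02 with RPM of all miRNA reads. Both comparisons use the same wild type library. By comparison, of 18 other conserved families with at least 30 reads, ld-1 had 3 listed higher (miR398, miR408 and miR528) and 0 lower. In ld-2, 2 were higher (miR398 and miR528) and 2 lower (miR156 and miR172). The median log2 ratio of those family sums was -0.06 for ld-1 and -0.41 for ld-2.

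Among single sequences, 1 of 11 tested members was listed higher and 0 lower in ld-1, against 6.42% higher and 2.75% lower of all 109 tested sequences. In ld-2, 1 of 11 was listed higher and 1 lower, against 20.2% and 8.26% of all tested. Between the mutants 0 of 11 was listed either way, against 19.3% higher and 6.42% lower in ld-2. All 12 miR2118 rows were among the 22 sequences behind the 20.2% and the 21 behind the 19.3%. The tested members had a median log2 ratio of -0.03 for ld-1 and -0.02 for ld-2, and that of all tested sequences was -0.03 and -0.08. The counts of members are too small to be read against these backgrounds as anything particular to the families. The sequences behind them are described by family.

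**Figure D2:**
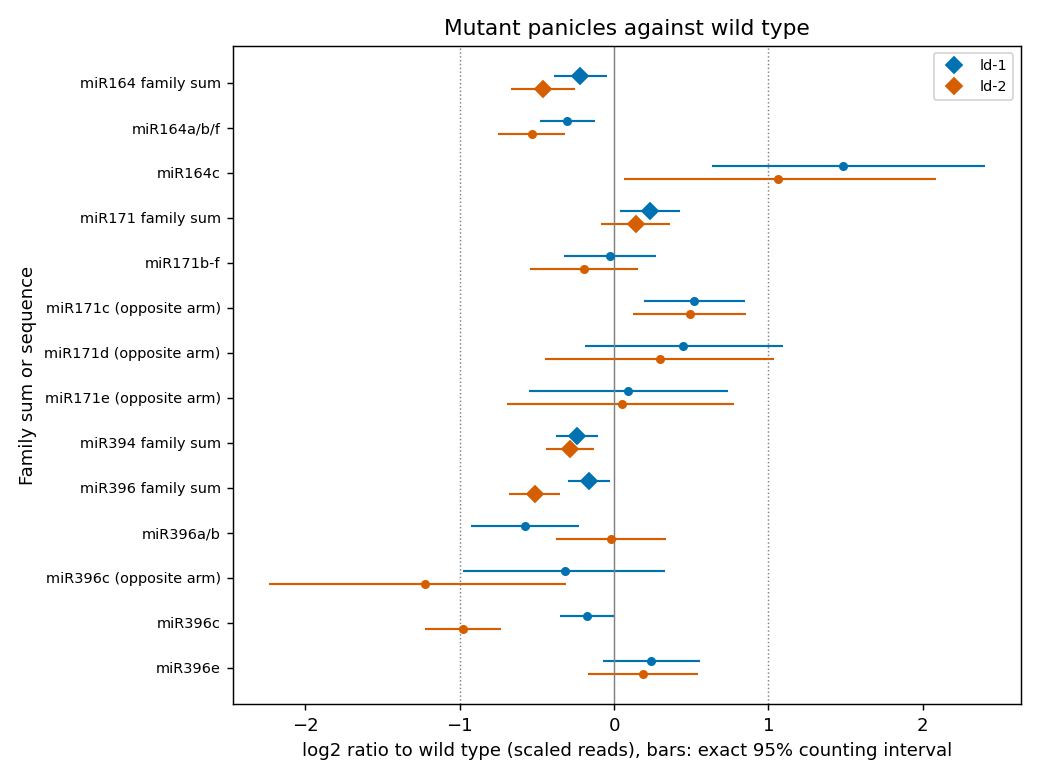
Log2 ratio of ld-1 and ld-2 to the wild type library for each family sum (diamonds) and each tested member (circles); bars are exact 95% counting intervals and dotted lines mark 2-fold. miR164c lies beyond 2-fold above wild type in both mutants, and the miR396c sequences lie near or beyond 2-fold below it in ld-2.

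**Figure D3:**
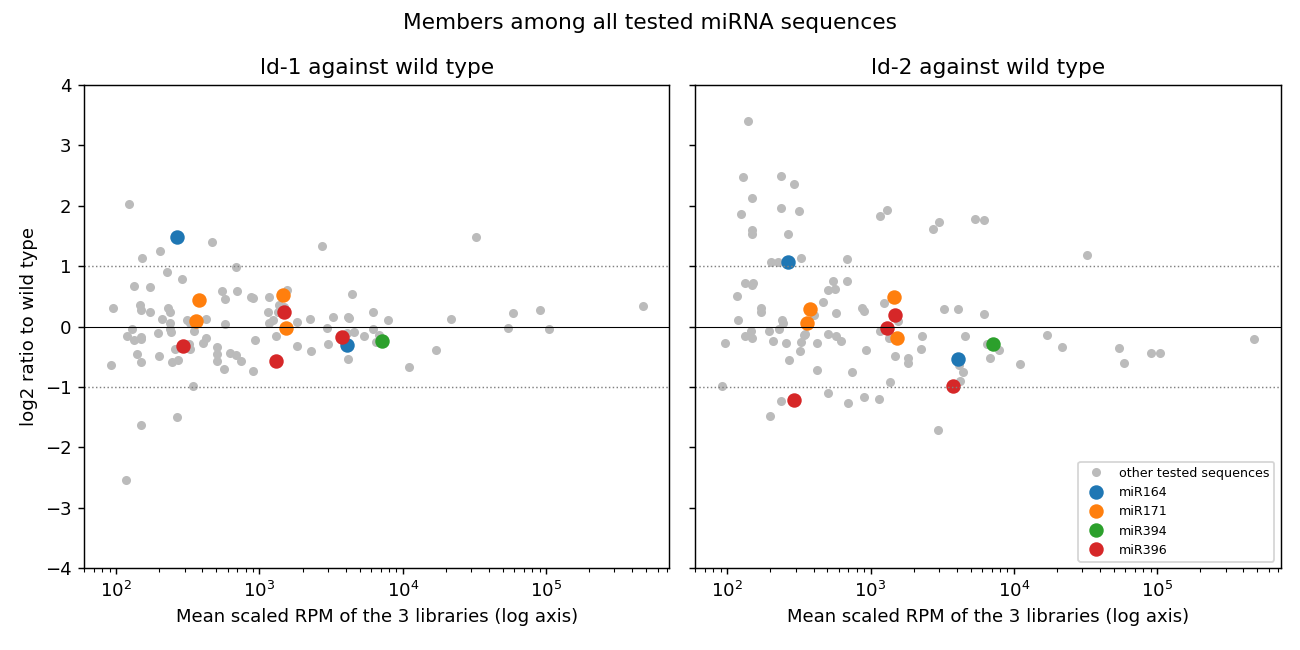
Log2 ratio to wild type (vertical) against the mean scaled RPM of the 3 libraries (log axis) for all tested sequences, members in colour; 97 of 98 other sequences lie within the axes in each panel. Most of the 11 members lie between the dotted 2-fold lines, with miR164c above them in both mutants and the opposite arm of miR396c below them in ld-2.

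In the boundary family miR164, the shared sequence of miR164a, miR164b and miR164f gave nearly all reads, and the minor copy miR164c was the member listed higher in both mutants. The shared sequence had 575, 480 and 262 reads, or 4901, 3972 and 3389 RPM. The log2 ratios were -0.30 for ld-1 (-0.48 to -0.13) and -0.53 for ld-2 (-0.75 to -0.32), so wild type was the highest library. miR164c had 16, 46 and 22 reads, or 136, 381 and 285 RPM. It was 2.79-fold higher in ld-1 (log2 1.48, 0.63 to 2.40) and 2.09-fold higher than wild type in ld-2 (log2 1.06, 0.07 to 2.09), both against the same 16 wild type reads. The ld-2 call ended with DESeq2 size factors (0.99), without the 5 most abundant sequences (0.97) and in thinned libraries (0.92), as well as with a 99% interval. The ld-1 call held under each of these settings.

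A share within a family does not depend on scaling between libraries. Of all miR164 reads, miR164c took 2.69% (1.55% to 4.34%), 8.75% (6.47% to 11.5%) and 7.72% (4.90% to 11.5%), so wild type stood apart from both mutants and the mutants overlapped. Relative to the shared sequence, miR164c was 3.44-fold more frequent in ld-1 than in wild type (log2 1.78, 0.91 to 2.72) and 3.02-fold in ld-2 (log2 1.59, 0.57 to 2.64). Reads of such close sequences can be divided by counting rules that are not described. The part of such rules in the miR164c values was not tested. miR164d, which differs from the shared sequence at the last base, had 3, 0 and 1 reads. In ld-1 the count of 0 for miR164d allows up to 24.8 RPM by 3 counts.

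The meristem family miR171 had more reads on opposite-arm rows than on its main copy in each library, and that surplus was larger in both mutants. In wild type the surplus was not resolved, as the main copy took 46.7% of the family's reads (41.7% to 51.7%). The wild type surplus also depends on miR171d and miR171e, whose arm assignment is weaker. Much of the surplus in the mutants came from these rows as well. The miR171c row by itself had 198 reads against 191 for the main copy in ld-1, and 124 against 109 in ld-2. The intervals of their shares of the family's reads overlapped in ld-1 (36.0% to 44.9% against 34.6% to 43.5%). They also overlapped in ld-2 (36.5% to 48.0% against 31.5% to 42.9%). The main copy, shared by miR171b to miR171f and the sequence that pairs with GRAS transcripts, had 189, 191 and 109 reads, or 1611, 1580 and 1410 RPM. The log2 ratios were -0.03 for ld-1 (-0.33 to 0.27) and -0.19 for ld-2 (-0.55 to 0.16), the first turning positive in thinned libraries (0.04) and the second (0.02) with RPM of all miRNA reads. The intervals include a ratio of 1 and leave differences of under 1.5-fold unresolved at this depth.

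The miR171c row of the opposite arm, gGATATTGgtgcggttcaatc, had 134, 198 and 124 reads, or 1142, 1638 and 1604 RPM, with wild type the lowest library. Against wild type it stood at a log2 ratio of 0.52 for ld-1 (0.20 to 0.85) and 0.49 for ld-2 (0.13 to 0.85). For ld-1 the interval included 0 with RPM of all miRNA reads (-0.03 to 0.62) and in thinned libraries (-0.05 to 0.87). For ld-2 it excluded 0 in both of these settings. The row was thus less frequent than the main copy in wild type, at 70.9 reads per 100, and slightly more frequent in the mutants, at 104 in ld-1 and 114 in ld-2. That proportion was 1.46-fold higher in ld-1 (log2 0.55, 0.10 to 0.99) and 1.60-fold higher in ld-2 (log2 0.68, 0.17 to 1.19). miR171d had 37, 52 and 30 reads and miR171e had 41, 45 and 28, and each of their intervals included a ratio of 1. Summed, the opposite-arm rows had 216, 299 and 185 reads, with log2 ratios of 0.43 for ld-1 (0.17 to 0.69) and 0.38 for ld-2 (0.09 to 0.67). RPM of all miRNA reads shifts these ratios by -0.23 for ld-1 and 0.21 for ld-2. Per read of the main copy the opposite-arm rows were at 1.14, 1.57 and 1.70 reads, a log2 difference from wild type of 0.45 for ld-1 (0.06 to 0.85) and 0.57 for ld-2 (0.11 to 1.03). The miR171i row aGGTATTGgcgtgcctcaatc had 4, 4 and 3 reads, under the read minimum. The other miR171i row, gGATTGAGccgcgtcaatatc, which carries the seed of the main copy, had 0 reads in each library, allowing up to 25.6, 24.8 and 38.8 RPM by 3 counts.

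miR394 was a single row and the most abundant single sequence of the 4 families in each library. It had 952, 829 and 515 reads. The log2 ratios given above for the family are those of this sequence, a level 1.18-fold lower in ld-1 and 1.22-fold lower in ld-2. Wild type was the highest library, and the mutants overlapped with TMM, with a log2 ratio of ld-2 to ld-1 of -0.04 (-0.20 to 0.12). That ratio turned positive with TMM without miR2118 (0.02) and TMM over the tested sequences (0.10). With RPM of all miRNA reads it was 0.39 (0.23 to 0.55), an interval that excluded 0.

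In the GRF-targeting family miR396 the sum stayed within 2-fold, and the proportions between its copies differed by up to 2.57-fold between libraries. Its main copy miR396c had 553, 505 and 185 reads, or 4714, 4179 and 2393 RPM. In ld-1 its log2 ratio was -0.17 (-0.35 to 0.003). Under each other scaling of the full libraries the ratio lay between -0.40 and -0.18 with an interval excluding 0. In thinned libraries the interval included 0 (-0.51 to 0.01). In ld-2 miR396c was 1.97-fold lower (log2 -0.98, -1.23 to -0.74), just inside the 2-fold limit, and it passed that limit with DESeq2 size factors (-1.05) and without the 5 most abundant sequences (-1.07). The opposite-arm miR396c row had 46, 38 and 13 reads, and was 2.33-fold lower in ld-2 (log2 -1.22, -2.23 to -0.31) and at -0.32 in ld-1 (-0.98 to 0.33). The proportion of opposite-arm to main-arm miR396c reads was 8.32%, 7.52% and 7.03%, with a log2 difference from wild type of -0.14 for ld-1 (-0.83 to 0.53) and -0.24 for ld-2 (-1.29 to 0.71). No difference in that proportion was detectable at this depth.

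The other miR396 copies did not follow miR396c in ld-2. miR396a//miR396b had 172, 119 and 112 reads, or 1466, 985 and 1449 RPM, lowest in ld-1. Against wild type its log2 ratio was -0.57 for ld-1 (-0.92 to -0.23) and -0.02 for ld-2 (-0.37 to 0.33), the latter turning positive with RPM of all miRNA reads (0.19), TMM without miR2118 (0.04) and TMM over the tested sequences (0.09). miR396e, the form with the added G, had 157, 191 and 118 reads, or 1338, 1580 and 1526 RPM, with log2 ratios of 0.24 for ld-1 (-0.07 to 0.55) and 0.19 for ld-2 (-0.17 to 0.54). Thus miR396c took 59.6% (56.4% to 62.8%) and 59.2% (55.8% to 62.5%) of the family's reads in wild type and ld-1, but 43.2% in ld-2 (38.5% to 48.1%). miR396e took 16.9% (14.6% to 19.5%), 22.4% (19.6% to 25.3%) and 27.6% (23.4% to 32.1%), so that both mutants lay above wild type.

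Set against miR396c, from which it differs at the last base, miR396a//miR396b stood at 31.1, 23.6 and 60.5 reads per 100. This proportion was 1.95-fold higher in ld-2 than in wild type (log2 0.96, 0.52 to 1.39) and 2.57-fold higher than in ld-1 (log2 1.36, 0.90 to 1.82). For miR396e to miR396c it was 28.4, 37.8 and 63.8 reads per 100, 2.25-fold higher in ld-2 than in wild type (log2 1.17, 0.73 to 1.60) and 1.33-fold higher in ld-1 (log2 0.41, 0.05 to 0.78). The assignment of reads to such close sequences is not described. miR396e lies 3 edits from miR396c and 2 edits from miR396a//miR396b. The part of read assignment in these proportions was not tested. The opposite-arm row gTTCAATAaagctgtgggaa of miR396a//miR396b and miR396f, tCTCCACAggctttcttgaact, had 0 reads in each library. miR396f holds 20 bases of miR396e behind 2 further bases at its start.

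**Figure D4:**
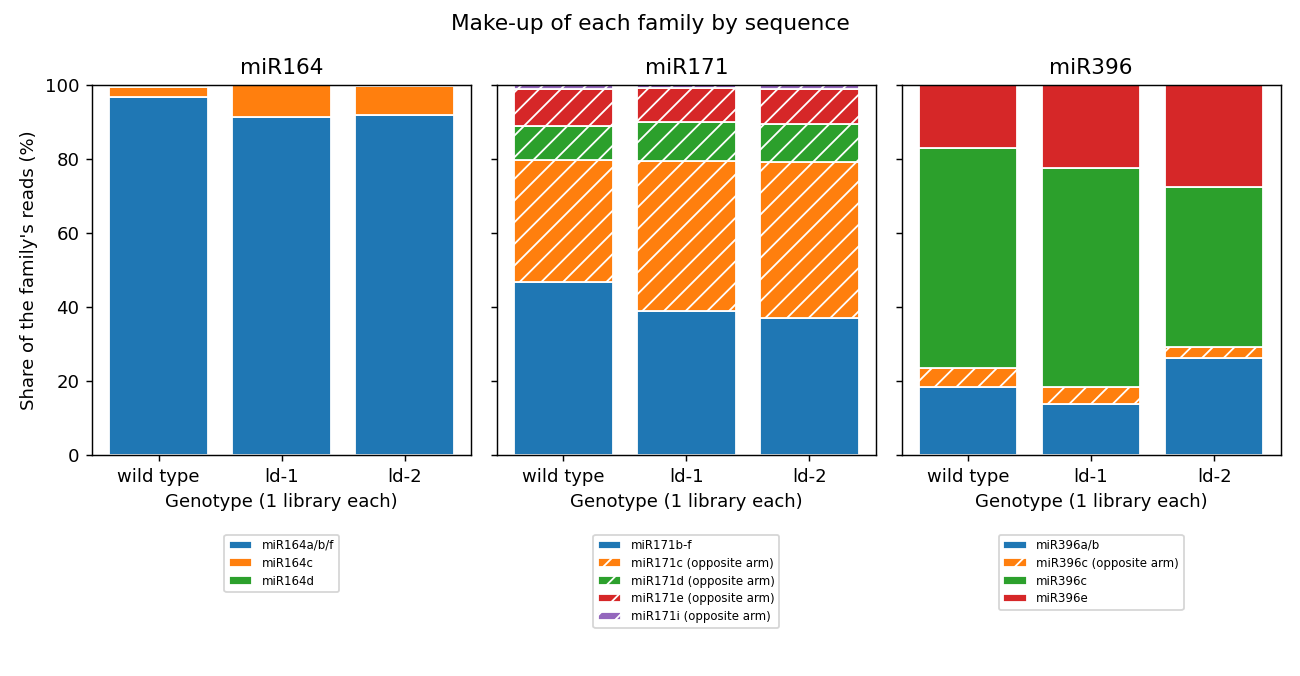
Share of each family's reads (%) by sequence in 1 library per genotype, with opposite-arm rows hatched; miR394 is 1 sequence and is left out. miR164c widens from 2.69% to 8.75% and 7.72% of miR164, the main miR171 copy narrows from 46.7% to 39.0% and 37.1%, and miR396c narrows from 59.2% in ld-1 to 43.2% in ld-2.

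Among 63 sequences of other families with at least 100 reads, the nearest to each main copy were sought by the Euclidean distance of the pair of log2 ratios to wild type, over 3 libraries. miR394 lay 0.01 from miR162a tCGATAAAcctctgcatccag, and 0.11 from miR2871a//miR2871b. The shared miR164 sequence lay 0.07 from miR529a cTGTACCCtctctcttcttc and 0.13 from miR169e. The main miR171 copy lay 0.08 from miR5159 and 0.08 from miR444b//miR444c tGCAGTTGttgtctcaagctt. miR396c had no equally close sequence, the nearest being miR1883a//miR1883b at 0.26 and miR168a gATCCCGCcttgcaccaagtgaat at 0.30.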

How the data were processed

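Per the file headers, the authors deposited unnormalized read counts, a row for each mature sequence and a column for each library. Per the labels' protocols, small RNA of 20 to 30 nt was gel-purified and sequenced on a MiSeq. How reads were trimmed, mapped and assigned, and with which miRNA release, was not stated in the sources used here. From these counts, TMM factors (edgeR 4.0.16, R 4.3.3) were computed over all 367 rows, giving 1.00, 0.858 and 1.16 for wild type, ld-1 and ld-2. Ratios carry Clopper-Pearson intervals on both counts, shares exact binomial intervals, and proportions of copies exact conditional intervals (Python 3.11.15, scipy 1.17.1, pandas 2.3.3, numpy 2.4.6). Edits were counted with edlib 1.3.9.post1, and plots drawn with matplotlib 3.10.9. The calculation of ratios and intervals was tested on simulated Poisson counts with known library sizes. That check does not cover the TMM factors or the spread between plants. Reads are not independent molecules, so intervals and floors (3 counts) cover counting error only. No p-value was computed. Every member is named, with the 2 nearest sequences per main copy. The members, lists and rules were chosen with earlier results of these data known. The alternatives tried were DESeq2 1.42.0 size factors, RPM of all miRNA reads, other library sizes, other limits and libraries thinned to 66642 reads. TMM over the 109 tested sequences was chosen after seeing the data.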

Additional observations from a re-analysis of the deposited data

Results flagged for a closer look

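The proportion of miR396a//miR396b to miR396c reads was lower than in wild type in ld-1 (log2 -0.40, -0.79 to -0.01) and higher in ld-2 (log2 0.96, 0.52 to 1.39), which drew attention because the mutants lay on opposite sides of the same wild type library. The log2 difference between ld-2 and ld-1 was 1.36, and it was not tested against the variation between plants.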

How the results depend on the processing

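RPM of all miRNA reads shifted all log2 ratios to wild type by -0.23 (ld-1) and 0.21 (ld-2), and those between the mutants by 0.43. Under it the sums of miR164, miR171, miR394 and miR396 stood at -0.44, 0.0054, -0.47 and -0.39 in ld-1. In ld-2 the 4 sums stood at -0.25, 0.35, -0.077 and -0.31, and the interval of miR394 (-0.23 to 0.08) then included 0. The interval of miR171 (0.13 to 0.57) then excluded 0, as it did with TMM over the tested sequences (0.25, 0.03 to 0.47). Between the mutants the 4 sums stood at 0.20, 0.34, 0.39 and 0.084, all of opposite sign to the values with TMM. The intervals of miR171 (0.13 to 0.55) and miR394 (0.23 to 0.55) then excluded 0, and those of miR164 and miR396 included it. Leaving out the 5 most abundant sequences shifted ratios by -0.13 in ld-1, and TMM over the tested sequences by 0.11 in ld-2 and 0.15 between the mutants. The miR171 sum on its main arm alone was -0.028 for ld-1 and -0.19 for ld-2, and within that arm the main copy took 100% of reads in each library. A minimum of 100 reads left 0 members listed in either direction, since miR164c and the opposite-arm miR396c row were then not tested. In ld-2, 0 members were listed higher with DESeq2 size factors, without the 5 most abundant sequences, in thinned libraries and with a 99% interval. In ld-2, 2 were listed lower with DESeq2 size factors, without the 5 most abundant sequences and at 1.5-fold, and between the mutants 1 was listed lower at 1.5-fold. Of the alternative values of the family sums, counts and main-copy shares, 129 of 156 stayed within the counting interval or within 1.5 times the count. The 129 include the main-arm sums and within-arm shares of miR164 and miR394. These families have main-arm rows only, so those values could not differ from the main ones. The 129 also include member counts of 0 that could not rise under a 99% interval or a minimum of 100 reads. No paired analysis was possible because each genotype had 1 library, and no replicate could be left out. Depth limits miR164d, miR171i and the rows at 0 reads.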
